A study of Sus scrofa with 24 samples.

Results

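The genes described here are TET3, TET2, DNMT1, DNMT3A and UHRF1, which encode enzymes and a cofactor that write, keep or remove DNA methylation. Their rows were read by symbol from the deposited tables of pig liver RNAseq, in which all 5 were found among 13463 genes, and all 5 passed the filter on low counts that left 8279 genes for testing. TET3 was selected on its measured rise in read counts with Sustanon against control, so its values in the Sustanon comparisons are a description and carry no test. The other 4 were chosen as its functional partners.

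The study treated crossbred pigs with anabolic steroids by intramuscular injection and sequenced the liver of 24 animals, with 1 library per pig. Sustanon, a mixture of testosterone esters of 250 mg/ml, was given at 4 mg/kg body weight to 3 castrated boars, 3 sows and 2 uncastrated boars. Myodin, a nandrolone ester of 25 mg/ml, was given at 5 mg/kg to 2 castrated boars, 3 sows and 3 uncastrated boars. The 8 control pigs, 3 castrated boars, 3 sows and 2 uncastrated boars, received neither steroid. Sows and castrated boars are called pigs without testes below, to set them apart from the uncastrated boars, whose own androgens were not analysed here. The treatment groups were housed apart, so that treatment and pen cannot be told apart.

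Totals ran from 9267780 to 14017276 counts per library. Hepatocyte transcripts marked all libraries as liver: the summed TPM (transcript abundance allowing for gene length and library total) of 6 hepatocyte markers lay between 92166 and 215308, while 3 skeletal muscle markers summed to at most 7.33 TPM and insulin reached at most 0.55 TPM. In 3 control libraries the Y-linked gene KDM5D went against the label: the libraries labelled castrated boar 15, sow 16 and sow 18 had 0, 35 and 95 counts. All 3 belong to the control pigs without testes, and the edgeR calls below are also given without them. The column header of Sustanon sow 6 carries the sex code of the castrated boars, but KDM5D was at 0 counts there, as in the other Sustanon sows.

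DNA methylation is a methyl group on the cytosine of CpG sites. DNMT3A places it on unmethylated DNA, and DNMT1 copies it to the new strand at replication, guided there by UHRF1, which binds hemimethylated sites. TET2 and TET3 oxidize 5-methylcytosine in steps, using 2-oxoglutarate and iron, and base excision repair or further replication then restores plain cytosine. In adult liver few hepatocytes divide, so that oxidation by TET enzymes can act there without replication. The libraries measure transcripts, not methylation.

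TET3 (ENSSSCG00000008292, chromosome 3, 68918896 to 69020406 in Sscrofa11.1) had more transcript in every Sustanon liver than in any control liver. In CPM (counts relative to the library total after TMM scaling, so not per length), the 3 Sustanon castrated boars had 108, 282 and 80.7, the 3 sows 156, 257 and 204, and the 2 uncastrated boars 372 and 267. The control castrated boars had 44.9, 39.9 and 47.9, the control sows 43.8, 38.5 and 44.4, and the control uncastrated boars 74.7 and 68.2. Sustanon castrated boars 1 and 3 were the lowest of the treated pigs, and the control uncastrated boars were the highest of the controls, just below them. The mean was 216 ± 97.6 CPM (SD, n = 8) with Sustanon and 50.3 ± 13.5 (n = 8) in controls. Of 8279 genes, 0.362% had all Sustanon libraries above all controls.

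The edgeR fit gave TET3 a log2 fold change of 2.10 (SE 0.38), the 13th highest of 8279 genes. Leaving out each library in turn kept it between 1.94 and 2.22, and it was 2.02 without the 3 control libraries whose KDM5D goes against the label. Within pigs without testes the log2 fold change was 2.07 (SE 0.33, 6 against 6 pigs, and 2.14 without the 3 control libraries), and within uncastrated boars it was 2.16 (SE 0.58, 2 against 2). These effects differed by 0.09, with an SE of 0.64, and no test is given since the same libraries chose the gene. Summed hepatocyte marker levels of the Sustanon livers, 144775 to 215308 TPM, overlapped those of the controls, 120015 to 183177 TPM. All 6 hepatocyte markers had a positive log2 fold change, with a median of 0.19 where that of all genes was -0.01, and none was called. Their part in the TET3 difference was not tested. In whole liver a change in cell number and a change in RNA per cell cannot be told apart.

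**Figure D1:**
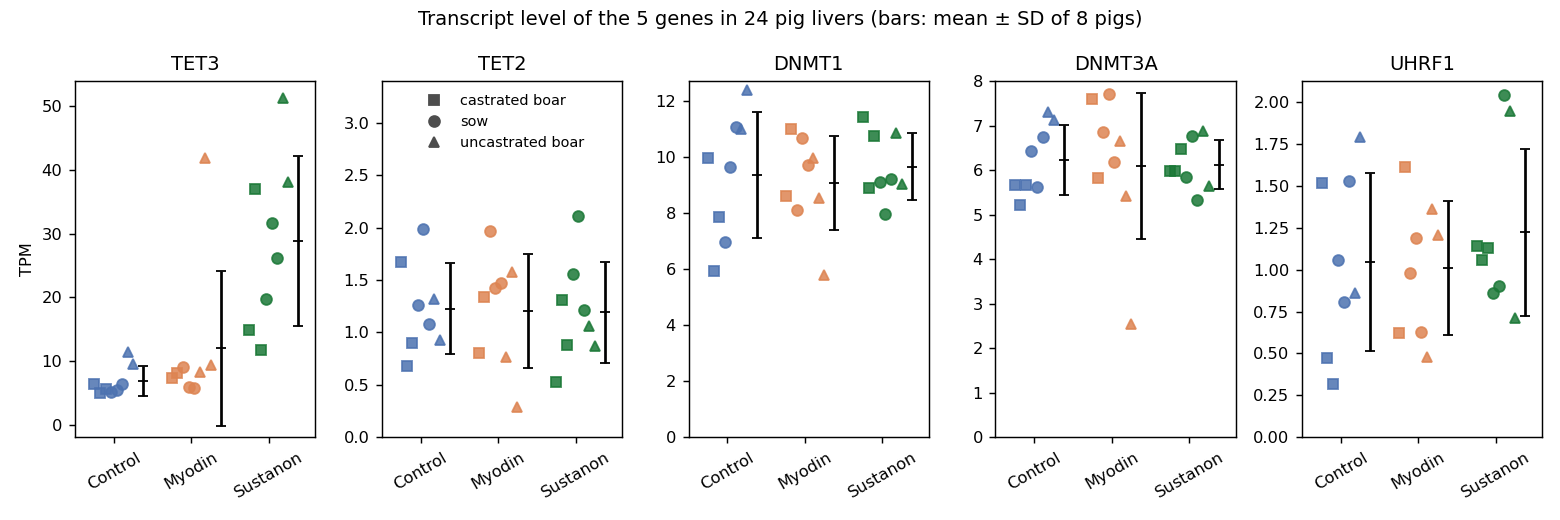
TPM of each gene in each of 24 livers by treatment, with the marker shape giving the labelled sex and the bars the mean and SD of 8 pigs. For TET3 the 8 Sustanon livers sit between 11.7 and 51.3 TPM, above the controls at 4.91 to 11.4, while for the other 4 genes the treatments overlap.

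Myodin livers held TET3 near the control range, with 1 exception. The Myodin castrated boars had 58.0 and 61.5 CPM, the sows 72.9, 41.9 and 45.7, and the uncastrated boars 59.3, 324 and 76.9. Boar 23, at 324 CPM, was within the Sustanon range, and the other 7 Myodin pigs lay below every Sustanon pig. The mean of 92.6 ± 94.4 CPM (SD, n = 8) became 59.5 ± 12.8 (n = 7) without it. Against controls the log2 fold change was 0.88 (SE 0.36), and without boar 23 it was 0.24. No gene of 8279 passed an adjusted p of 0.05 in this comparison (0% called by edgeR, 597 genes at an unadjusted p under 0.05, and 1 gene by DESeq2). Among pigs without testes the 5 Myodin pigs averaged 0.35 higher in log2 CPM than the 6 controls, and 0.42 higher without the 3 control libraries. The Sustanon and Myodin comparisons share the 8 control libraries, whose TET3 values were used in its choice, so these differences are a description too, with no p of their own.

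Sustanon and Myodin differ in steroid and in dose. Set side by side, TET3 was 1.22 higher with Sustanon on the log2 scale (SE 0.36), and 1.86 higher without Myodin boar 23. That comparison shares the Sustanon libraries with the one that chose the gene, and it has no test here.

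Boars with testes were also compared with pigs without them among the 16 control and Myodin pigs. This contrast is not the one that chose TET3, but 8 of its libraries are the controls used in that choice. TET3 was higher in the boars. The 5 uncastrated boars had a lowest, median and highest level of 59.3, 74.7 and 324 CPM, and the 11 pigs without testes 38.5, 44.9 and 72.9 CPM. The ranges overlapped. Myodin boar 22, at 59.3 CPM, was below Myodin castrated boar 9 and Myodin sow 10, and control boar 27, at 68.2 CPM, was below Myodin sow 10. Among controls alone, boars 25 and 27 had 74.7 and 68.2 CPM and the 6 other pigs 38.5 to 47.9 CPM. These ranges did not overlap, but 830 of the 8279 genes tested were higher in both boars than in all 6 others. In the 8 Myodin pigs, which the choice of TET3 did not use, the 3 boars averaged 1.05 higher in log2 CPM than the 5 others (exact permutation test, two-sided, p = 0.0536), and 0.30 higher without boar 23 (exact permutation test, p = 0.286).

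In the edgeR fit of treatment and testes the boars exceeded the others by 1.09 on the log2 scale (SE 0.29, adjusted p = 0.0331), and TET3 was among the 2.62% of genes that passed the test as higher in boars. In mean log2 CPM the difference was 0.89. The size of the difference was not stable. Without Myodin boar 23 the edgeR log2 fold change was 0.50. Without the 3 control libraries at odds with their label the log2 fold change was 1.12. Limma on the deposited log2 values gave 0.88, and uncastrated against castrated boars alone gave 1.04 by edgeR.

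**Figure D2:**
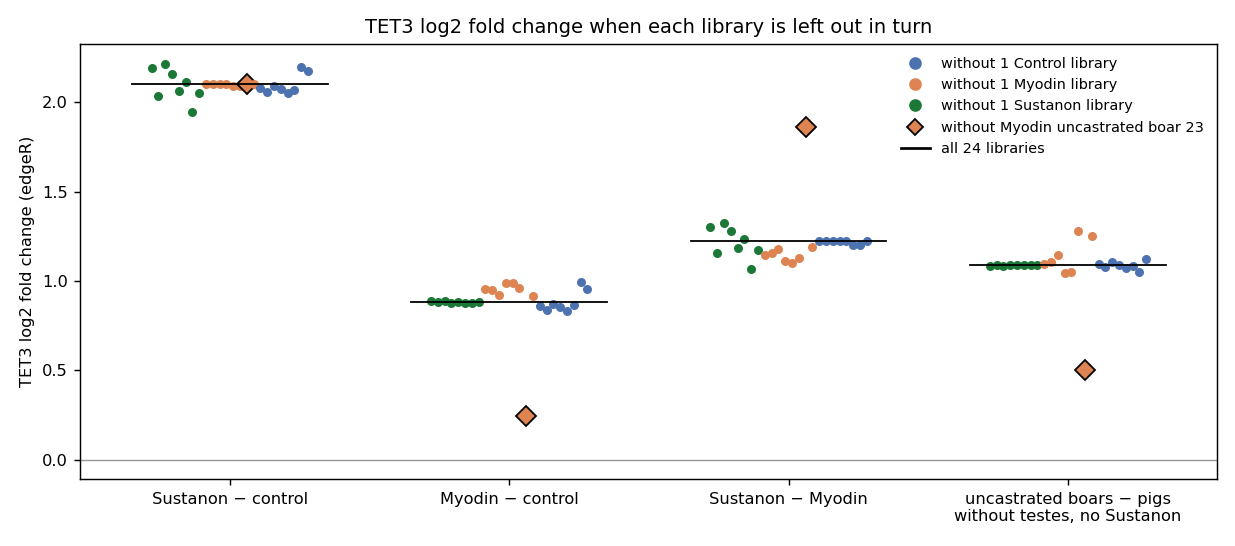
TET3 log2 fold change by edgeR in 4 comparisons (y axis), each point leaving out 1 library, with the line for all 24. Against control, Sustanon stays between 1.94 and 2.22, while without Myodin boar 23 (diamond) the Myodin value falls to 0.24 and that of uncastrated boars to 0.50.

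TET2 (ENSSSCG00000009157, chromosome 8, 116413253 to 116546976) is the other TET gene in the files, TET1 being not analysed here. Its transcript was scarce and did not follow TET3. Counts ran from 16 to 126 per library. The lowest, median and highest levels were 3.52, 5.19 and 8.83 CPM in controls, 2.48, 5.44 and 10.9 with Sustanon, and 1.54, 6.41 and 10.1 with Myodin. The 3 ranges overlapped almost wholly. Sustanon against control gave a log2 fold change of -0.01 (95% interval -0.60 to 0.58, edgeR adjusted p = 0.993). The boars without Sustanon were 0.50 lower than pigs without testes, with a log2 fold change of -0.50 (95% interval -1.15 to 0.14, edgeR adjusted p = 0.401). In mean log2 CPM within treatments their difference was -0.56 (exact permutation test, two-sided, p = 0.103). Without Myodin boar 23 it was -0.84 (exact permutation test, p = 0.0255), and within Myodin alone it went from -0.88 (p = 0.214) to -1.43 (p = 0.0476, the smallest that 2 against 5 pigs allow). These p-values are not adjusted for the number of tests. Myodin boars 22, 23 and 24 had 3.53, 7.71 and 1.54 CPM, and boar 24 held the lowest level of the 24 livers. The differences without boar 24 would be smaller in size, and they are not given. Per length, TET3 exceeded TET2 in all 24 livers, by a median ratio of TPM of 6.07 in controls, 7.65 with Myodin and 24.9 with Sustanon.

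DNMT1 (ENSSSCG00000013659, chromosome 2, 68981564 to 69040364), the maintenance methyltransferase, stayed near the same level under all 3 treatments. Its lowest, median and highest levels were 20.3, 29.4 and 38.2 CPM in controls, 27.2, 30.4 and 34.8 with Sustanon, and 19.9, 29.8 and 35.6 with Myodin. The Sustanon range lay inside the control range. Sustanon against control gave a log2 fold change of 0.07 (SE 0.11, edgeR adjusted p = 0.812), with a 95% interval from -0.15 to 0.29. Boars without Sustanon differed from pigs without testes by 0.03 (95% interval -0.19 to 0.25, edgeR adjusted p = 0.916).

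DNMT3A (ENSSSCG00000029413, chromosome 3, 113501972 to 113609148), the de novo methyltransferase, had 10.7, 12.5 and 13.9 CPM as lowest, median and highest level in controls, 10.7, 11.9 and 14.1 with Sustanon, and 5.67, 13.1 and 15.8 with Myodin. The control and Sustanon ranges coincided. The log2 fold change of Sustanon against control was -0.04 (SE 0.14, 95% interval -0.31 to 0.23, edgeR adjusted p = 0.911). Myodin boar 24 alone fell to 5.67 CPM. It was also the lowest of the 24 livers for TET2, at 1.54 CPM, for DNMT1, at 19.9 CPM, and for the summed hepatocyte markers, at 92166 TPM, but not for UHRF1, at 2.69 CPM, or TET3, at 76.9 CPM. Among pigs without testes, DNMT3A was 0.24 higher in log2 CPM with Myodin than in controls (exact permutation test, two-sided, p = 0.0281, not adjusted for the 33 such tests run over the 5 genes, and 0.35 higher with p = 0.0357 without the 3 control libraries). The levels overlapped there, 12.01 to 15.8 CPM against 10.7 to 13.6, and the edgeR fit of castrated boars and sows gave an adjusted p of 0.407. Boars without Sustanon had a log2 fold change of -0.19 against pigs without testes (95% interval -0.45 to 0.07, edgeR adjusted p = 0.448). Within Myodin the boars were 0.60 lower in mean log2 CPM, a difference of -0.60 (exact permutation test, two-sided, p = 0.0357, not adjusted for 33 tests), and without boar 23 it was -0.73 (exact permutation test, p = 0.0952). Boar 24 is 1 of these 3 boars. In log2 CPM boars 22, 23 and 24 had 3.67, 3.50 and 2.55, where the 5 other Myodin pigs averaged 3.84. Most of the difference of -0.60 thus came from boar 24. Without boar 24 it would be smaller in size, and that value is not given.

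UHRF1 (ENSSSCG00000013517, chromosome 2, 73898061 to 73937727), the partner that brings DNMT1 to replicated DNA, was the gene with the fewest counts, 7 to 49 per library. Its lowest, median and highest levels were 0.739, 2.01 and 3.56 CPM in controls, 1.33, 2.14 and 4.29 with Sustanon, and 0.921, 2.25 and 3.32 with Myodin. The groups overlapped. Sustanon against control gave a log2 fold change of 0.28 (SE 0.31, 95% interval -0.33 to 0.88, edgeR adjusted p = 0.694). Changes of any size within this interval remain compatible with these counts and this number of pigs. Sustanon sow 6 held the highest level.

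None of these 4 genes passed an adjusted p of 0.05 in any of the 7 comparisons fitted, against 5.07% of genes in Sustanon against control, 0.664% in Sustanon against Myodin, 5.27% in uncastrated boars against pigs without testes and 5.54% in Sustanon against control among pigs without testes. In the uncastrated boars alone no gene at all passed (0% of 8279 by edgeR, 886 at an unadjusted p under 0.05, 46 genes by DESeq2), and 3 genes passed for the difference between effects (0.0362%). Against control, the intervals of DNMT1 and DNMT3A leave room for a Sustanon effect of at most 0.29 and 0.31 in size on the log2 scale. Those of TET2 and UHRF1 reach 0.60 and 0.88.

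**Figure D3:**
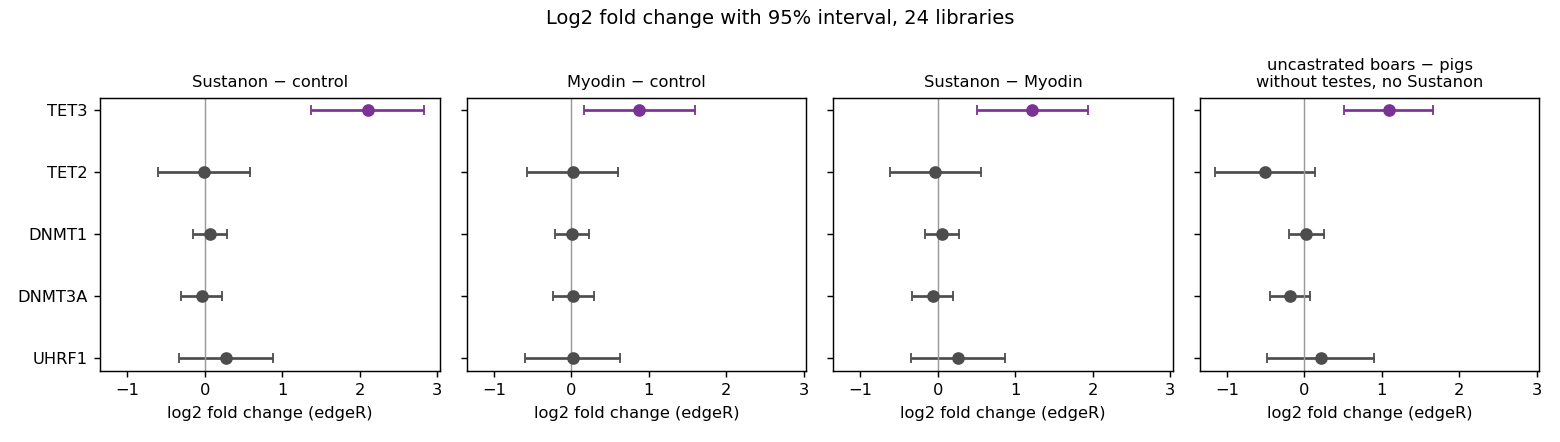
Log2 fold change by edgeR (x axis) of each gene in 4 comparisons, with 95% intervals, from 24 libraries. The intervals of TET2, DNMT1, DNMT3A and UHRF1 include 0 in each panel. The TET3 values come wholly or in part from the libraries that chose it.

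The order of the genes changed with Sustanon. Per length, controls had most of DNMT1, at 9.36 ± 2.24 TPM (SD, n = 8), then TET3 at 6.84 ± 2.36 and DNMT3A at 6.23 ± 0.786, and little of TET2 at 1.23 ± 0.432 and UHRF1 at 1.05 ± 0.529. TET3 and DNMT3A overlapped in these livers, as did TET2 and UHRF1, so that neither pair can be ordered beyond its spread. With Sustanon TET3 came first at 28.8 ± 13.3 TPM, ahead of DNMT1 at 9.66 ± 1.20, DNMT3A at 6.12 ± 0.550, UHRF1 at 1.22 ± 0.498 and TET2 at 1.19 ± 0.485. The ratio of TET3 to DNMT1 in TPM had a median of 0.729 in controls, 0.841 with Myodin and 3.41 with Sustanon. It was above 1 in 1 of 8 control, 3 of 8 Myodin and 8 of 8 Sustanon livers. The lowest Sustanon ratio, 1.08, was close to the highest control ratio, 1.04. Since TET3 was chosen for its rise, these ratios describe the same libraries again.

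Across the 24 livers TET3 in log2 CPM varied with little relation to the other members, with Pearson's r of 0.09 with TET2, 0.07 with DNMT1, -0.11 with DNMT3A and 0.34 with UHRF1. The 2 strongest pairs were TET2 with DNMT3A, at 0.54, and DNMT1 with DNMT3A, at 0.51. These are descriptions over 24 libraries that share treatments and pens.

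Of 6970 genes with a symbol and enough counts, those that followed TET3 most closely over the 24 livers were C12orf29 (r = 0.96), an RNA ligase, USP7 (0.95), a deubiquitinase, CROT (0.94), which handles medium-chain fatty acids in peroxisomes, RHOBTB3 (0.93), an atypical GTPase, ABCA1 (0.93), the cholesterol exporter, and AHR (0.93), the aryl hydrocarbon receptor. The genes that ran most against it were CD320 (-0.94), the receptor for vitamin B12 on transcobalamin, PEPD (-0.93), a dipeptidase, and DGAT1 (-0.93), which makes triglyceride. After removing the mean of each treatment, r was 0.83 to 0.92 for the first 6 and -0.91 to -0.90 for the last 3. With Myodin boar 23 left out as well, it was 0.73 to 0.86 and -0.82 to -0.79. The genes were picked by r over these same libraries, so these values are a description and no separate check. Of all 8278 other genes tested, with or without a symbol, 133 had an r of at least 0.8 with TET3 and 99 genes one of -0.8 or below.

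Myodin boar 23, the outlying Myodin pig for TET3, also stood apart in these genes, which were picked for following TET3 over libraries that include it. Its CROT level was 1572 CPM, where the Myodin median was 242, and its C12orf29 level was 121 CPM against a median of 45.3. PEPD was at 27.4 CPM against a median of 141, and CD320 at 8.56 CPM against 38.5. Without this boar r was 0.92 to 0.95 for the first 6 genes and -0.93 to -0.92 for the last 3.

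**Figure D4:**
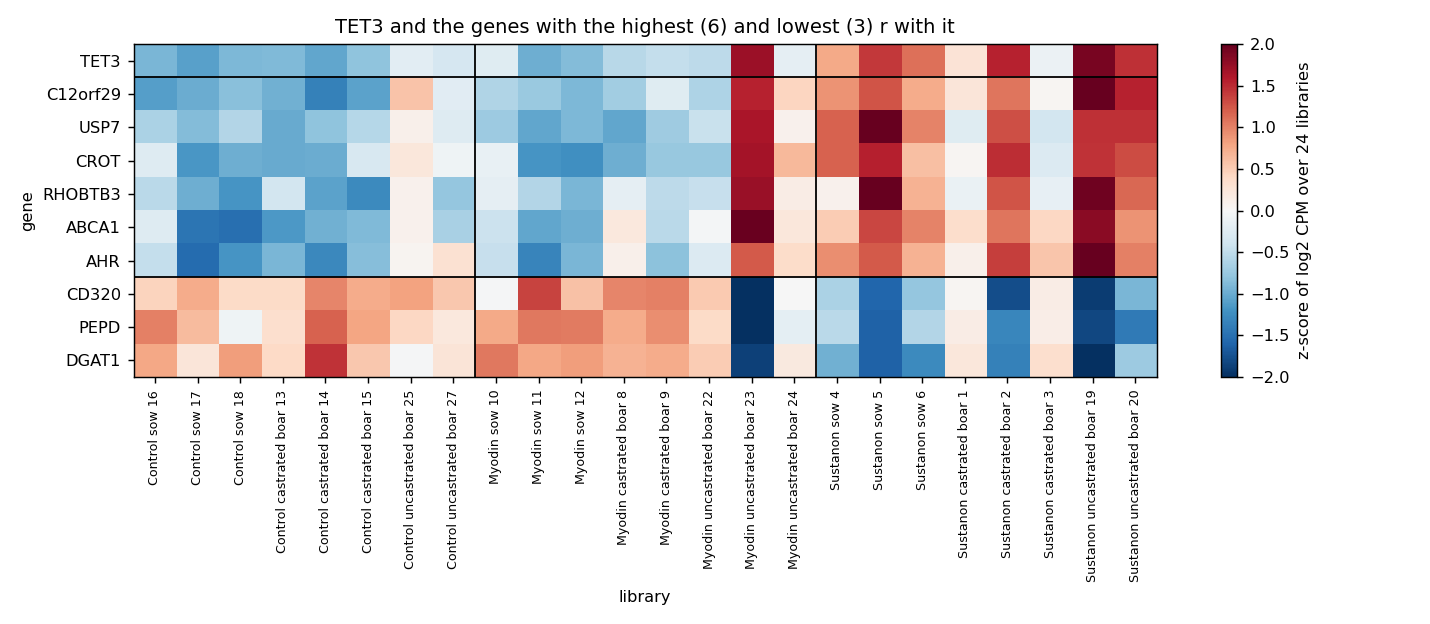
Z-score of log2 CPM over 24 libraries (colour) for TET3, the 6 genes with the highest and the 3 with the lowest r with it (rows), by library (columns, grouped as control, Myodin and Sustanon). Myodin boar 23 has the colours of the Sustanon livers, and Sustanon castrated boars 1 and 3 have pale ones.

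USP7 is of interest beside these genes because it removes ubiquitin from UHRF1 and DNMT1 and protects both from degradation. Its lowest, median and highest levels were 150, 165 and 195 CPM in controls, 175, 257 and 309 with Sustanon, and 149, 161 and 282 with Myodin. As for TET3, Sustanon castrated boars 1 and 3, at 180 and 175 CPM, were the low treated pigs. The control uncastrated boars, at 195 and 180 CPM, were the high controls, and Myodin boar 23, at 282 CPM, was the high Myodin pig. Sustanon against control gave it a log2 fold change of 0.55 (SE 0.13), 0.56 in pigs without testes (SE 0.12) and 0.54 without the 3 control libraries at odds with their label. USP7 is shown because it followed TET3 over these libraries, so these values repeat the choice of TET3 and carry no test. Without the 3 control libraries edgeR called 0 genes in Sustanon against control (1199 at an unadjusted p under 0.05). In boars against pigs without testes USP7 was 0.35 higher (SE 0.12), likewise with no test.

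**Figure D5:**
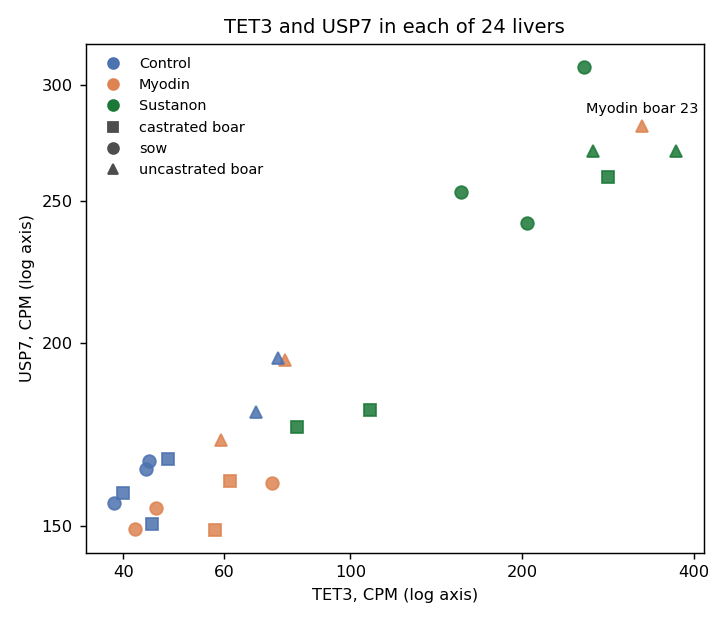
USP7 against TET3 in CPM, both on log axes, with 1 point per liver, coloured by treatment and shaped by labelled sex. The livers line up from the control sows and castrated boars at the lower left, through the control boars and 2 Sustanon castrated boars, to the other 6 Sustanon livers and Myodin boar 23 at the upper right (r = 0.95 in log2 CPM).

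Of the writers of methylation and their partners, 9 genes were tested. Of these, which include DNMT1, DNMT3A and UHRF1, USP7 was the 1 called as higher with Sustanon, beside 3.39% of all genes, and none was lower. This call repeats the choice of TET3, which USP7 was singled out for following, and it is lost without the 3 control libraries (edgeR adjusted p = 0.126). None of the 8 other genes was called. The list's median log2 fold change was 0.08, where that of all genes was -0.01. UHRF2, a relative of UHRF1, had 0.19 (SE 0.09, edgeR adjusted p = 0.220). In uncastrated boars against pigs without testes none of the 9 passed.

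For the removal of methylation, 11 genes were tested, including TET2 and TET3. TET3 apart, which was chosen for it, none passed in Sustanon against control. NEIL1, a glycosylase that helps to clear oxidized bases, had a log2 fold change of 0.37 (SE 0.16, edgeR adjusted p = 0.177), and XRCC1, a scaffold of base excision repair, -0.19 (SE 0.12, adjusted p = 0.425). TDG, the glycosylase that excises the oxidized cytosines made by TET enzymes, had -0.16 with Myodin (SE 0.10, edgeR adjusted p = 0.782). With TET3 set aside, since its control values were used in its choice, none passed in boars against pigs without testes, beside 5.27% of all genes.

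The readers of methylated DNA, 13 genes of the MBD proteins and the NuRD complex, had none called in any of these comparisons by edgeR. HDAC2, a histone deacetylase of NuRD, came nearest with Sustanon, at 0.28 (SE 0.09, adjusted p = 0.0603), followed by its remodeller CHD4 at -0.23 (SE 0.08, adjusted p = 0.116). In boars MTA2, another NuRD subunit, had 0.30 (SE 0.10, edgeR adjusted p = 0.0649).

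Genes that supply methyl groups through folate and methionine numbered 13. None was called with Sustanon, and 1 fell in uncastrated boars, where 2.65% of all genes were called as lower. MTHFD1, a trifunctional folate enzyme, had a lowest, median and highest level of 193, 208 and 263 CPM in the 5 boars and 246, 296 and 356 CPM in the 11 pigs without testes. Its log2 fold change was -0.43 (SE 0.10, edgeR adjusted p = 0.0141), and without control boar 27 it was -0.34 with an adjusted p of 0.156. Without the 3 control libraries it was -0.46 (edgeR adjusted p = 0.0196). Limma on the deposited log2 values gave -0.41 (adjusted p = 0.0595). With Sustanon SHMT2, the mitochondrial serine hydroxymethyltransferase, had 0.15 (SE 0.07, edgeR adjusted p = 0.216), ALDH7A1, which takes part in making betaine, -0.44 (SE 0.20, adjusted p = 0.230), and MTHFD1 -0.24 (SE 0.11, adjusted p = 0.245). The median log2 fold change of the 13 was -0.03.

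Of 9 genes tested that bear on the supply of 2-oxoglutarate to the TET enzymes, none was called with Sustanon. GOT2, the mitochondrial aspartate aminotransferase, had a log2 fold change of 0.16 (SE 0.12, edgeR adjusted p = 0.482).

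The histone demethylases of the JmjC family share the chemistry of the TET enzymes. Of 11 tested, KDM4B, which acts on histone H3 lysine 9, was the 1 called, and only by the comparison within pigs without testes, where 5.54% of all genes were called. There it had a lowest, median and highest level of 36.6, 47.6 and 53.6 CPM with Sustanon and 25.7, 27.5 and 39.2 CPM in controls, overlapping at the edges. The log2 fold change was 0.59 (SE 0.14, edgeR adjusted p = 0.0158, and 0.0838 without the 3 control libraries at odds with their label). Over all pigs it was 0.48 (SE 0.14, adjusted p = 0.0512).

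Of a list of genes of steroid hormone action, 6 were tested. NCOA2, a coactivator of steroid receptors, rose by 0.64 with Sustanon (SE 0.18, edgeR adjusted p = 0.0341), a call lost without any of 9 libraries in turn, with adjusted p up to 0.0954, the highest being that without Sustanon boar 19, and 0.136 without the 3 control libraries at odds with their label. FKBP5, a cochaperone induced by androgens, rose by 1.10 with Sustanon in pigs without testes (SE 0.30, edgeR adjusted p = 0.0307). That call was lost without any of 7 libraries in turn, with adjusted p up to 0.0842, the highest being that without Sustanon sow 5, and 0.102 without the 3 control libraries. In uncastrated boars without Sustanon FKBP5 was 1.24 higher (SE 0.27, edgeR adjusted p = 0.00942), and 1.17 higher, with an adjusted p of 0.0577, without control boar 25, and 1.32 higher (adjusted p = 0.0175) without the 3 control libraries. Over the 24 livers r with TET3 was 0.71 for FKBP5 and 0.79 for NCOA2.

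Imprinted genes, whose expression depends on methylation, and cell cycle genes, which move with replication, had no call among the 9 and 10 tested in Sustanon against control or in boars, where 5.07% and 5.27% of all genes were called. In boars 9 of the 10 cell cycle genes had a positive log2 fold change, with a median of 0.26 where that of all genes was 0.00284. IGF2R came nearest among the imprinted genes with Sustanon, at 0.45 (SE 0.14, edgeR adjusted p = 0.0552), and PLK1 among the cell cycle genes, at 0.37 (SE 0.17, adjusted p = 0.213). CDKN1C, another imprinted gene, had -0.37 (SE 0.27, edgeR adjusted p = 0.5001), and CDC20 -0.30 (SE 0.29, adjusted p = 0.648).

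Of markers of other cells in the liver, 10 leukocyte, 5 stellate and stromal, 4 endothelial, 3 bile duct and 3 red blood cell genes were tested, and 2 calls came from the leukocytes. All genes were called at 5.54% and 0.664% in the comparisons concerned. The 3 bile duct markers had a negative log2 fold change with both steroids against control, with medians of -0.21 for Sustanon and -0.58 for Myodin. So had the 3 red blood cell markers, with medians of -0.38 and -0.71, and of -0.87 in boars against pigs without testes. MS4A1, a B cell marker, was lower by 1.15 with Sustanon in pigs without testes, with a log2 fold change of -1.15 (SE 0.30, edgeR adjusted p = 0.0222, 0.0694 without control sow 17, and 0.0270 without the 3 control libraries), at 0.660 to 1.41 CPM against 0.909 to 3.64 CPM. NKG7, a marker of cytotoxic lymphocytes, had -0.82 in Sustanon against Myodin (SE 0.19, edgeR adjusted p = 0.0399), a call lost without any of 10 libraries in turn, with adjusted p up to 0.0999, the highest being that without Sustanon sow 5, and 0.0585 without the 3 control libraries. None of the 10 leukocyte genes was positive in that comparison, with a median log2 fold change of -0.37. Over the whole list of 10 leukocyte markers, the summed level was 473 to 608 TPM in controls, 428 to 590 with Sustanon and 473 to 649 with Myodin. Stellate and stromal markers, 5 genes, summed to 62.8 to 192 TPM in controls, 92.0 to 221 with Sustanon and 59.0 to 172 with Myodin. All 5 were higher with Sustanon in log2 fold change, with a median of 0.40 against control and 0.77 against Myodin. None was called by edgeR, and 3 were higher at an unadjusted p under 0.05 against Myodin, beside 8.91% of all genes. The median of all genes was -0.01 and -0.00472 in these comparisons. The part of these markers in the values of the 5 genes was not tested.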

How the data were processed

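RNAseq of liver was analysed from 24 pigs. Per the labels and the study's methods, RNA was extracted with an RNeasy kit and made into stranded mRNA libraries with the TruSeq kit. Reads were checked with FastQC, trimmed with Skewer and aligned with STAR 2.5 to Sscrofa11.1 in docker4seq. The counting program and annotation release are not given in the sources used here, nor is the treatment of reads shared by similar genes. The authors deposited raw counts per gene, without normalization. They also deposited log2(TPM + 1) values, which were converted back to TPM. At 329 entries a TPM above 0 stands beside a count of 0. Of 13463 genes, 3779 have no deposited symbol, and 359 of these were named from the reference table, which also gave the coordinates of the 5 genes.

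The tests used edgeR 4.0.16 (R 4.3.3). Low counts were filtered with filterByExpr for the 3 treatments (minimum count 10, minimum total 15), followed by TMM scaling and the quasi-likelihood test, two-sided, with Benjamini-Hochberg adjustment over 8279 genes and a call at an adjusted p under 0.05. A fit of the 3 treatments gave Sustanon against control, Myodin against control and Sustanon against Myodin. A fit of treatment by testes gave the 4 other comparisons. The SE is the absolute log2 fold change over the square root of F. Log2 CPM used a prior count of 2, and exact permutation tests of 1 gene were two-sided. Intervals are at 95%. The number of pigs, not depth alone, limits the precision: counts of TET2 and UHRF1 are low. The labels number the animals, which are the replicates.

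The study names DESeq2, and DESeq2 1.42.0 and limma 3.58.1 were run as alternatives, besides RLE scaling, no filter, sex as covariate, subsets of pigs and leaving out each library. After the data were seen, alternatives without the 3 control libraries at odds with their label, with an absolute log2 fold change of 1 or more, and with boars only were added. On simulated counts for Sustanon against control (8246 genes tested), edgeR recovered 95% of 100 genes changed by 1 and 100% of 100 changed by 2 on the log2 scale. Only genes with higher mean counts than UHRF1 were changed there, and no outlying pig or sex difference was simulated. The recovery therefore does not cover genes with counts as low as those of UHRF1. The members and gene lists were chosen with earlier results of these data known. Named genes are the 5 members, list genes with a call (at most 6 a list and comparison, otherwise the 2 of smallest p), and the 6 genes highest and 3 lowest in r with TET3 at a mean log2 CPM of at least 1. Some genes of these lists are counted but not reported by name here.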

Additional observations from a re-analysis of the deposited data

Results flagged for a closer look

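Of 30 groups of libraries checked by Dixon's test over the 5 genes, 5 held a library far from the rest, where chance flags about 1 in 20 groups. TET3 in Myodin uncastrated boar 23 was at 324 CPM, where the other 7 Myodin pigs had 41.9 to 76.9. DNMT1 in Myodin uncastrated boar 24 was at 19.9 CPM, and DNMT3A in the same boar at 5.67 CPM. DNMT3A in Sustanon sow 5 was at 14.1 CPM, above the other 5 treated pigs without testes. UHRF1 in Sustanon sow 6 was at 4.29 CPM, from 49 counts.

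For 3 effects every treated boar moved one way from the mean of its controls and every treated pig without testes the other. The share of all genes that meet this rule was not counted, so the 3 effects are a description. A related separation was common: 25.1% of 8279 genes were higher and 25.8% lower in every Sustanon boar than in every control boar. The effect of Sustanon on DNMT1 was 0.34 lower in log2 CPM in boars (difference -0.34), and the edgeR test of this difference gave -0.33 with an adjusted p of 0.825. The effect of Myodin on DNMT1 differed by -0.62 and that on DNMT3A by -0.76, boars minus pigs without testes, and these 2 differences were not tested. Both include Myodin boar 24.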

How the results depend on the processing

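The count of genes called for Sustanon against control, 420, was 0 without the 3 control libraries at odds with their label and 129 with an absolute log2 fold change of 1 or more. Over libraries left out it ran from 198 (without Sustanon boar 19) to 613, and it was 211 to 277 without Sustanon castrated boar 2, sow 5 or boar 20, or control castrated boar 13, 14 or 15. For Myodin against control it was 0, also when any library was left out, 1 by DESeq2 and 8 in castrated boars and sows only. For Sustanon against Myodin, 55, it was 275 by DESeq2, 36 with no count filter, 390 with sex as covariate, 339 in castrated boars and sows only, 9 with these 2 treatments alone, 29 without the 3 control libraries and 17 with the fold change rule. Over libraries left out it ran from 0 (without Sustanon castrated boar 2, sow 5, sow 6 or boar 20, or Myodin sow 10) to 541 (without Myodin boar 23), and 15 of the 24 libraries moved it by over 1.5 times. For boars against pigs without testes, 436, it was 21 with boars only, 101 with the fold change rule and 88 to 636 over libraries left out, with 88 and 111 without control boars 27 and 25. For Sustanon against control in pigs without testes, 459, it was 126 without the 3 control libraries, 165 with the fold change rule and 288 (without Sustanon sow 5) to 550 over libraries left out. In uncastrated boars, 0, it was 46 by DESeq2, 5 by limma and 0 to 20 over libraries left out, the highest without Myodin boar 23. For the difference between effects, 3, it was 33 by DESeq2, 6 by limma and 0 to 5 over libraries left out, with 0 without Sustanon boar 19 or 20. The cause was not tested.

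TET3 kept its direction in Sustanon against control under each setting run, at 1.84 to 2.11 on the log2 scale, and TET2, DNMT1, DNMT3A and UHRF1 were called under none in any of the 7 comparisons. Their log2 fold changes, close to 0, changed sign in places. In castrated boars and sows only, Sustanon against control gave 0.0170 for TET2 and 0.0169 for DNMT3A, and Sustanon against Myodin gave -0.0368 for DNMT1. By limma, Myodin against control gave -0.0355 for TET2, -0.0297 for DNMT1, -0.0632 for DNMT3A and -0.00667 for UHRF1, Sustanon against Myodin 0.00400 for TET2 and 0.0455 for DNMT3A, and Sustanon against control -0.00585 for TET2 in pigs without testes and -0.0204 for UHRF1 in boars. Without the 3 control libraries, Myodin against control gave -0.0262 for TET2, -0.00481 for DNMT1 and -0.00559 for UHRF1, and Sustanon against control -0.11 for TET2 in pigs without testes.

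Over libraries left out, TET2 ran from -0.20 to 0.10 in Sustanon against control, -0.13 to 0.16 in Myodin against control, -0.22 to 0.12 in Sustanon against Myodin, -0.21 to 0.18 in pigs without testes and -0.33 to 0.0341 in boars. DNMT1 ran from -0.0511 to 0.0762 in Myodin against control, -0.0107 to 0.0978 in Sustanon against Myodin and -0.0517 to 0.11 in boars against pigs without testes. DNMT3A ran from -0.0268 to 0.14 in Myodin against control and -0.0271 to 0.0602 for Sustanon in pigs without testes. UHRF1 ran from -0.11 to 0.17 in Myodin against control, -0.13 to 0.44 in boars against pigs without testes and -0.94 to 0.71 for Sustanon in boars. The difference between effects ran from -0.17 to 0.31 for TET3, -0.36 to 0.0469 for TET2 and -1.31 to 0.34 for UHRF1. Without Myodin boar 23 the differences in mean log2 CPM became -0.0135 for DNMT1 in boars and -0.00367 for UHRF1 with Myodin. Without the 3 control libraries those of DNMT3A against control became 0.00328 with Sustanon and 0.0194 with Myodin. Counts of TET2 and UHRF1 are low, and 2 to 3 boars a treatment limit each comparison of boars. No paired analysis was possible because the animal numbers are unique, so that no groups share them.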
